A study of Rattus norvegicus with 17 samples.

Results

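Creatine kinase and adenylate energy buffers are the enzymes and the transporter that keep ATP steady while a muscle contracts. The set was chosen by gene name as Ckm, Ckmt2, Ckb, Slc6a8, Ak1, Ampd1, Ampd3 and Adssl1. Of these 8 genes, 7 had an entry of that name among the 32495 named entries of the deposited count table, and all 7 were among the 11856 genes tested. Ak1 had no entry under that name and was not analysed here.

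RNA came from the gastrocnemius, the large calf muscle of the hindlimb, of rats bearing a tumor and given chemotherapy, of rats bearing a tumor without chemotherapy, and of healthy rats. There were 6, 5 and 5 samples in these groups. All groups shared the control diet, per the sample titles. The labels give neither the tumor, the chemotherapy agent, the strain nor the age, and do not say whether each sample came from its own animal, so the p-values measure the spread between these samples. The tissue label fitted its markers: Myh4 (fast myosin heavy chain), Acta1 (skeletal muscle actin) and Ckm were the 3 genes with the highest mean CPM, a measure that is not corrected for transcript length.

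Creatine kinase moves a phosphate group reversibly between ATP and creatine. In muscle, Ckmt2 charges creatine at the mitochondrion and Ckm regenerates ATP at the myofibrils, while Slc6a8 carries creatine into the fiber. During hard work ADP also accumulates and adenylate kinase turns it into ATP and AMP. AMP deaminases (Ampd1, Ampd3) convert AMP to IMP, and adenylosuccinate synthetase (Adssl1) takes the first step back to AMP. Adenylosuccinate lyase (Adsl) completes that return, and the 3 reactions make up the purine nucleotide cycle.

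The upstream sequences of Ckm and Ckb are shown because their levels varied together over the samples (Pearson r = 0.877). That of Ampd1 is shown because it shares with Ckb a short element that, in the exact form searched, few windows hold. The levels of Ampd1 and Ckb went together only weakly (r = 0.196). RefSeq entries for assembly GRCr8 were found for 5 of the 8 genes. Each sequence holds the 250 bases before the start of the gene, read 5′ to 3′ on the gene's strand. They lie at chr1:88189211-88189460 on the plus strand for Ckm, at chr6:136553465-136553714 on the minus strand for Ckb and at chr2:193287082-193287331 on the plus strand for Ampd1. Capitals mark the E-box CANNTG, which muscle regulatory factors of the MyoD family are known to bind, the element TATAAA, and the MEF2 element, an A- and T-rich motif bound by MEF2 factors. All were searched on both strands.
Ckm: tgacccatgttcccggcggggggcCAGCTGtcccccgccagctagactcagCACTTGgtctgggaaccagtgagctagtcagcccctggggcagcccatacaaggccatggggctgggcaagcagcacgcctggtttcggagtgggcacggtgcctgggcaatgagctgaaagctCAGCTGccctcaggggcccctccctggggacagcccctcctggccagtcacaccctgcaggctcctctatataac
Ckb: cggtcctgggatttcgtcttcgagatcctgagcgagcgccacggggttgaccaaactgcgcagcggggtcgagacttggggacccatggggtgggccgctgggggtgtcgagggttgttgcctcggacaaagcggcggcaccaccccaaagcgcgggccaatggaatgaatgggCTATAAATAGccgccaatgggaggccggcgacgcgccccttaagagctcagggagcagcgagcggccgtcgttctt
Ampd1: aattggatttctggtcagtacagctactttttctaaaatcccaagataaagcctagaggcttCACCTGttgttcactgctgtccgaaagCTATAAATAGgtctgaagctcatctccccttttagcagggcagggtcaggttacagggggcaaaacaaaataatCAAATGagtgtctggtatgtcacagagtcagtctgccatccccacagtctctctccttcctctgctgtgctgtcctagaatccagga

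The Ckm window held 3 E-boxes, of which those starting at -226 and -75 from the start of the gene read CAGCTG. The Ckm window held neither TATAAA nor a MEF2 element of the form searched. The Ckb window held no E-box. A MEF2 element, overlapping a TATAAA in both genes, started at -76 in Ckb and at -161 in Ampd1. Of the windows not shown, that of Ckmt2 held 2 E-boxes, 1 of them a CAGCTG at -113, and that of Slc6a8 held 1 E-box at -35. Neither held TATAAA or a MEF2 element of the form searched. Among 33469 RefSeq windows of the same length, 0.523% held a MEF2 element of this exact form and 12.9% held TATAAA. An E-box was present in 65.5% of the windows and its form CAGCTG in 12% of them. These matches describe the letters only.

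Totals of the 16 samples lay between 3020821 and 19965891 counts. Levels are given as CPM, the count of a gene relative to all counts of its library, scaled by library size and a TMM factor, and they are compared between samples of a gene. Differences are log2 fold changes with a standard error (SE) from edgeR's quasi-likelihood test, with p adjusted over the 11856 genes; called means that this adjusted p lay below 0.05. Library names end in MB on healthy libraries 1 to 4 and chemotherapy library 11, and in VM on the other samples. What the suffix stands for is not given, and it largely cannot be told apart from the healthy group. The numbers before the suffix recur: 39 stands on healthy library 2 and tumor library 9, 40 on healthy library 3 and tumor library 10, 41 on healthy libraries 4 and 5, and 1 on chemotherapy libraries 11 and 14. Whether these 8 samples share animals is not given; if they do, n is smaller than printed. Library 11 is the sum of 2 chemotherapy libraries whose counts were the closest of any pair within a group.

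Ckm, the muscle-type cytosolic creatine kinase, was the only member called in any comparison. It fell in the chemotherapy group relative to the healthy group, to a level of 0.566 times. Of the 7 members, 0 were called higher and 1 lower there, against 7.3% and 6.41% of all genes, and 13.7% of all genes were called in either direction. At an unadjusted p below 0.05 there were 0 members higher and 2 lower, against 18.9% and 17.5% of all genes. In the tumor group against the healthy group, and in the chemotherapy group against the tumor group, edgeR called 0 of the 7 members and 0% of all genes. At an unadjusted p below 0.05 the tumor against healthy comparison had 1 member higher and 2 lower, against 8.88% and 9.12% of all genes. The chemotherapy against tumor comparison had 0 higher and 1 lower, against 1.97% and 3.81%. DESeq2 and limma-voom also called 0 members in both.

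**Figure D1:**
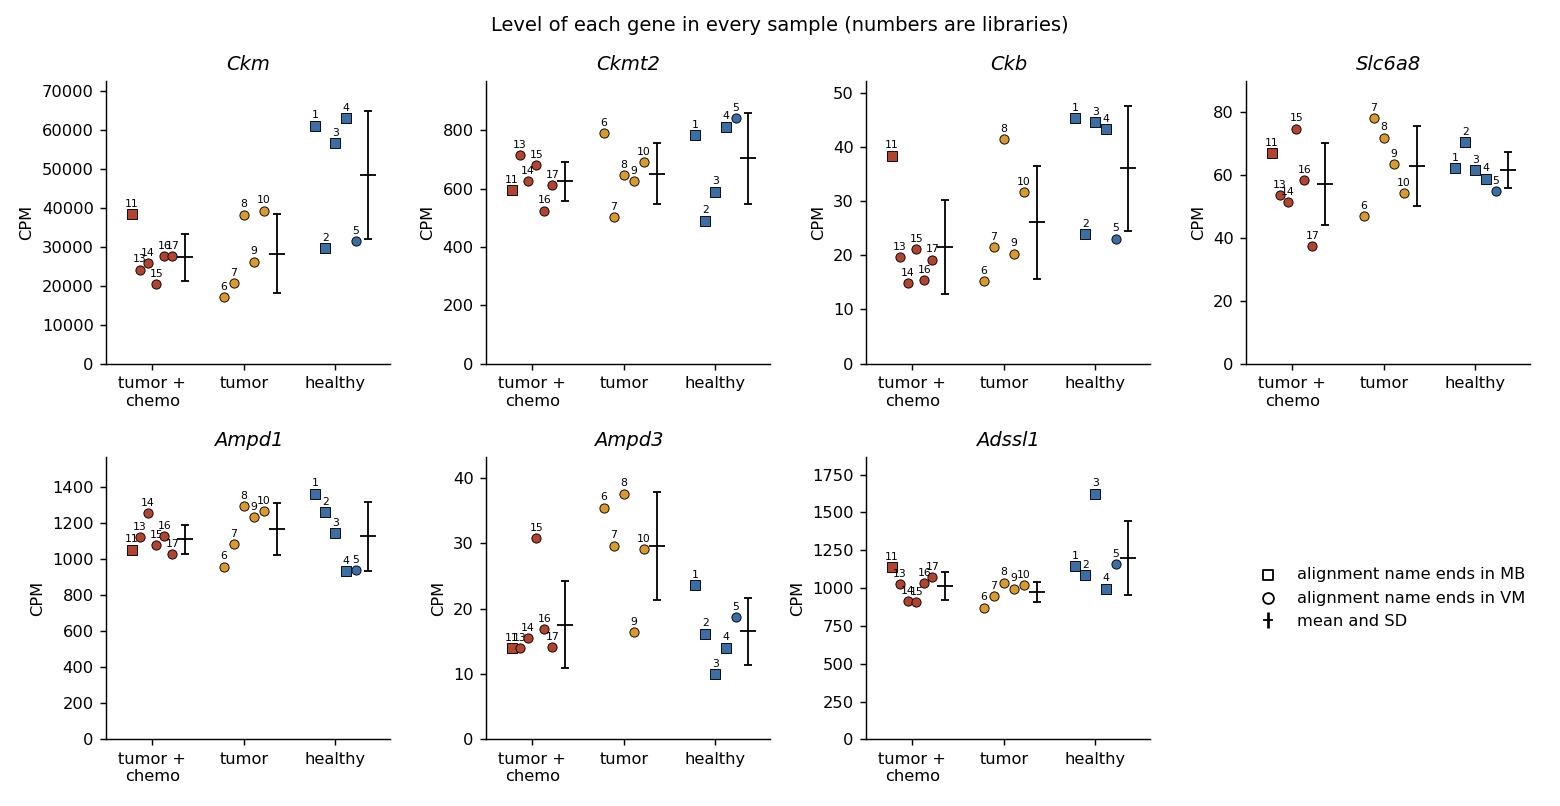
Level of each of the 7 members in CPM (linear axes from 0) in every sample, with the chemotherapy group on the left, then the tumor group and the healthy group; points are samples numbered by library, squares are MB and circles VM libraries, and bars are group means with SD. Healthy libraries 1, 3 and 4 stand highest for Ckm, at 61085, 56570 and 63036 CPM.

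The chemotherapy samples had a lowest Ckm level of 20432 CPM, a median of 26720 CPM and a highest of 38332 CPM. In the tumor group libraries 6 to 10 had 17032, 20590, 38247, 26165 and 39281 CPM, and in the healthy group libraries 1 to 5 had 61085, 29615, 56570, 63036 and 31398 CPM. All 6 chemotherapy samples and all 5 tumor samples lay below the healthy median of 56570 CPM. The ranges overlapped nonetheless, because healthy libraries 2 and 5 lay among the tumor-bearing samples.

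Ckm averaged 27340 ± 6016 CPM in the chemotherapy group and 48340 ± 16460 CPM in the healthy group (SD, n = 6 and 5), a log2 fold change of -0.82 ± 0.249 (SE, adjusted p = 0.0392). In the tumor group it averaged 28260 ± 10130 CPM (SD, n = 5), a log2 fold change of -0.77 ± 0.263 against healthy (SE, adjusted p = 0.221). Between the chemotherapy and tumor groups the log2 difference was -0.048 ± 0.25 (SE, adjusted p = 0.971). Ckm alone made up 2.82% ± 0.605 of all counts in the chemotherapy group, 2.85% ± 0.879 in the tumor group and 4.48% ± 1.41 in the healthy group. The call in the chemotherapy group against the healthy group was lost on leaving out healthy library 1, 3 or 4, or chemotherapy library 13, 14, 15, 16 or 17, with log2 fold changes from -0.97 to -0.72 and adjusted p from 0.00862 to 0.117 over the 16 samples left out in turn. With the suffix as a term, Ckm differed by -0.39 (adjusted p = 0.65), among VM libraries, where the healthy group is library 5 alone, by -0.32 (adjusted p = 0.776), and without healthy libraries 1, 3 and 4 by -0.16 (adjusted p = 0.952).

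Marker sums of some other cell types varied with Ckm. Over the 16 samples its log2 level correlated with the summed level of fibroblast markers (Pearson r = 0.816), of macrophage markers (0.808) and of red blood cell markers (0.75), and with the log2 total count (0.53). For the other cell types r was 0.426 (smooth muscle and pericyte), 0.343 (endothelial), 0.325 (nerve and Schwann cell) and -0.266 (adipocyte). For the fiber types it was 0.141 (fast) and -0.304 (slow). Myh4, which leads the fast-fiber sum, had a log2 fold change of -0.0042 in the chemotherapy group against healthy. Of the 9 fast-fiber genes tested, 6 were negative and 3 positive there, with a median of -0.31 against -0.018 over all genes. In the tumor group against healthy 6 were also negative and 3 positive, with a median of -0.23 against 0.0097. The points share library preparation, depth and the groups themselves. The fibroblast sum is led by the collagen genes Col1a1 and Col3a1, at mean levels of 4545 and 1645 CPM over the samples. The fibroblast sum ranged from 2330 to 10900 CPM in the chemotherapy group, from 2897 to 13140 CPM in the tumor group and from 4717 to 14400 CPM in the healthy group, with 7 of 8 listed genes measured and 0 of them at 0 throughout. The macrophage sum, with 8 of 8 genes measured, ranged from 211 to 420.3 CPM in the chemotherapy group, from 173 to 332 CPM in the tumor group and from 207 to 443 CPM in the healthy group. Healthy libraries 3 and 4 also had the highest shares of even values among counts of 1 to 10, at 56.5% and 59.5%, where the other samples had 45.9% to 53.2%. The part of these in the Ckm result was not tested. In bulk muscle, fewer cells of a type and less RNA per cell cannot be told apart.

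Ckb, the brain-type cytosolic creatine kinase of smooth muscle, neurons and other cells that are not striated muscle, passed the test in no comparison over all samples. The chemotherapy samples had a lowest level of 14.9 CPM, a median of 19.4 CPM and a highest of 38.4 CPM. Tumor libraries 6 to 10 had 15.3, 21.5, 41.5, 20.3 and 31.7 CPM, and healthy libraries 1 to 5 had 45.3, 23.9, 44.5, 43.2 and 23.1 CPM. The high healthy samples were again libraries 1, 3 and 4, and the groups overlapped.

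Ckb averaged 21.5 ± 8.65 CPM in the chemotherapy group, against 26.1 ± 10.5 CPM in the tumor group and 36.01 ± 11.5 CPM in the healthy group (SD, n = 6, 5 and 5). The log2 fold change of the chemotherapy group against healthy was -0.73 ± 0.281 (SE, adjusted p = 0.0733), close to that of Ckm in size but not called. It was called on leaving out healthy library 2 (-0.85, adjusted p = 0.0312), healthy library 5 (-0.87, adjusted p = 0.0426) or chemotherapy library 11 (-1.01, adjusted p = 0.0183), and over all samples left out in turn it ranged from -1.01 to -0.64 (adjusted p from 0.0183 to 0.181). It shrank to -0.20 when the suffix entered the fit (adjusted p = 0.811), to -0.37 among VM libraries (adjusted p = 0.760) and to -0.10 without healthy libraries 1, 3 and 4 (adjusted p = 0.982). Against healthy, the tumor group differed by -0.47 ± 0.291 on the log2 scale (SE, adjusted p = 0.373), and with the suffix as a term by 0.31, the opposite direction.

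Ckb and Ckm varied together over the 16 samples, with a Pearson r of 0.877 and a Spearman rho of 0.829, and r stayed at 0.853 with the group means removed. Among the 21 pairs of members this was the highest r. Ckb also correlated with the fibroblast sum (r = 0.885), the macrophage sum (0.748), the smooth muscle and pericyte sum (0.638) and the log2 total count (0.558). Its r was 0.538 with the endothelial sum, 0.524 with red blood cell, 0.469 with nerve and Schwann cell and -0.121 with adipocyte markers. With the fiber types it was 0.0486 (fast) and -0.0583 (slow). The smooth muscle and pericyte sum averaged 317 ± 43.7 CPM in the chemotherapy group, 471.5 ± 79.6 CPM in the tumor group and 468.5 ± 42.6 CPM in the healthy group, with 9 of 9 listed genes measured. The part of these cell types and of depth in the pairing was not tested.

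**Figure D2:**
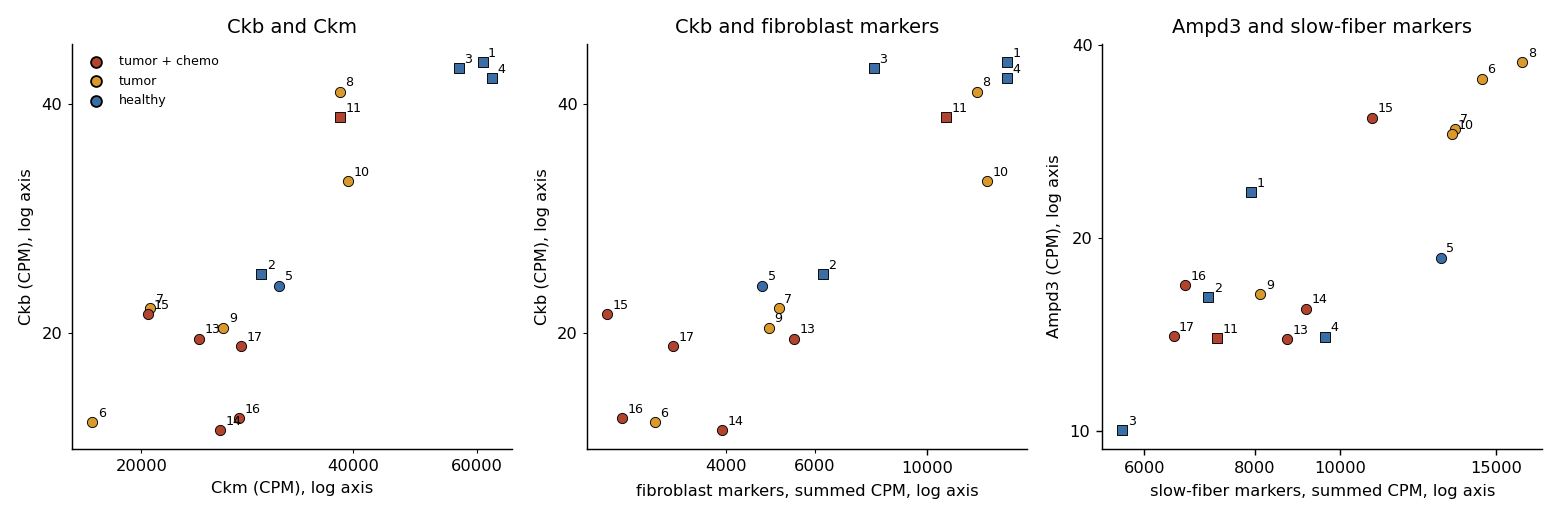
Ckb against Ckm, Ckb against the summed fibroblast markers and Ampd3 against the summed slow-fiber markers, each in CPM on log axes, with 1 point per sample numbered by library, coloured by group, square for MB and round for VM libraries. Pearson r over the 16 samples was 0.877, 0.885 and 0.835 from left to right, and healthy libraries 1, 3 and 4 lie at the upper right of the first panel.

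Ckmt2, the mitochondrial creatine kinase of striated muscle, passed the test in no comparison. Its level was between 524 and 716 CPM in the chemotherapy group (median 618), between 503 and 790.5 CPM in the tumor group (median 645.5) and between 490.4 and 842 CPM in the healthy group (median 782). The ranges overlapped, but all 6 chemotherapy samples and 4 of 5 tumor samples lay below the healthy median. Healthy libraries 1, 4 and 5, at 782, 812 and 842 CPM, lay above every chemotherapy sample. The log2 differences were -0.17 ± 0.154 for the chemotherapy group against healthy (SE, adjusted p = 0.435), -0.11 ± 0.161 for the tumor group against healthy (SE, adjusted p = 0.713) and -0.059 ± 0.154 for the chemotherapy group against the tumor group (SE, adjusted p = 0.931). Over the samples Ckmt2 went with Ckm only weakly (r = 0.23).

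Slc6a8, the sodium- and chloride-dependent creatine transporter, had a level between 37.5 and 74.8 CPM in the chemotherapy group, between 47.0 and 78.1 CPM in the tumor group and between 54.8 and 70.6 CPM in the healthy group. Mean levels were 57.1 ± 12.99, 62.9 ± 12.7 and 61.6 ± 5.81 CPM in these groups (SD, n = 6, 5 and 5), closer to each other than the SDs of the chemotherapy and tumor groups. The log2 difference of the chemotherapy group from healthy was -0.11 ± 0.164 (SE, adjusted p = 0.655), and it was 0.033 when libraries were scaled by total counts.

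Within a library, the ratio of mitochondrial to cytosolic creatine kinase needs no scaling between libraries. Ckmt2 counts were between 1.55% and 3.33% of Ckm counts in the chemotherapy group, between 1.69% and 4.64% in the tumor group and between 1.04% and 2.68% in the healthy group. All 6 chemotherapy and all 5 tumor samples lay above the healthy median, while healthy library 5, at 2.68%, lay inside both ranges. The log2 ratio differed by 0.63 between the chemotherapy and healthy groups (two-sided exact permutation p = 0.0584, 0.171 adjusted over the 12 ratio tests) and by 0.68 between the tumor and healthy groups (exact p = 0.0952, adjusted 0.19). Among VM libraries these differences were -0.094 and -0.16, so the direction turned when healthy library 5 stood alone for its group.

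Ckb counts were between 0.0565% and 0.104% of Ckm counts in the chemotherapy group, between 0.078% and 0.109% in the tumor group and between 0.0686% and 0.0811% in the healthy group. The spread of the log2 ratio was 0.384 in the chemotherapy group, 0.215 in the tumor group and 0.0937 in the healthy group (SD, n = 6, 5 and 5). Ckb had 786 counts in chemotherapy library 11 and 65 to 144 in the other chemotherapy samples. It had 90 to 437 counts in the tumor group and 87 to 640 in the healthy group. The part of these low counts in the spread was not tested. The tumor against healthy difference of the log2 ratio, 0.29, had an exact p of 0.0397, adjusted to 0.171. The chemotherapy against healthy difference was 0.018 (exact p = 0.9).

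**Figure D3:**
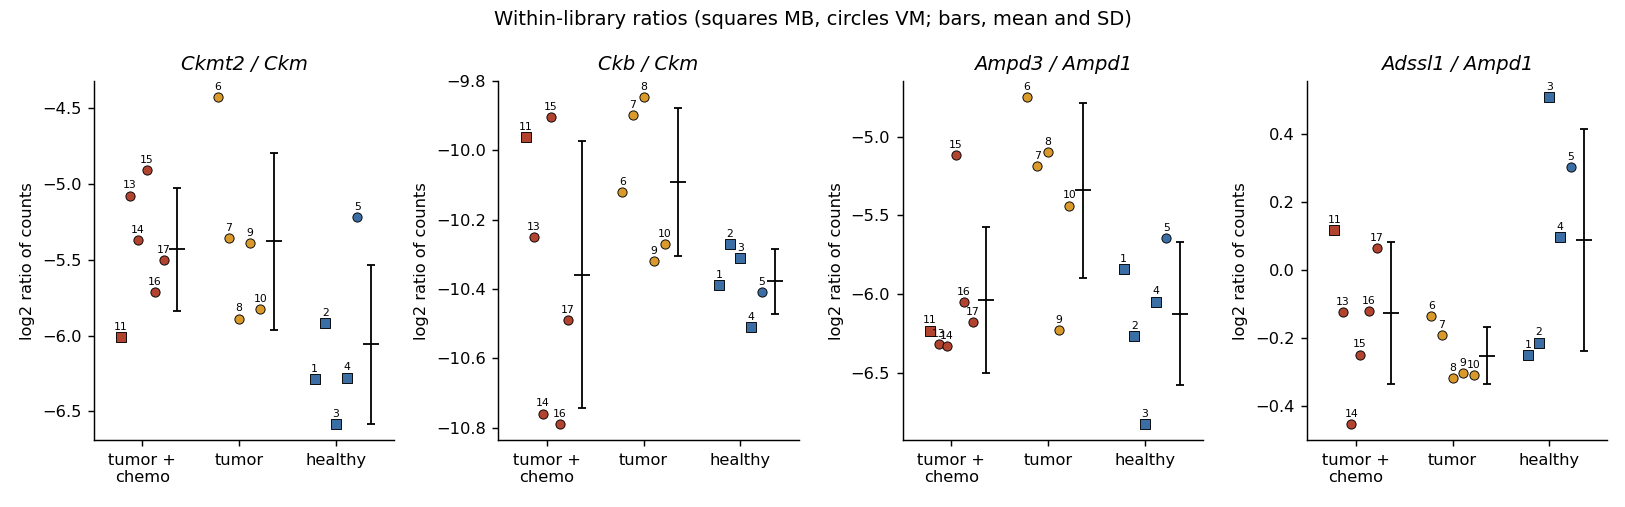
Log2 ratio of counts within each library for Ckmt2 over Ckm, Ckb over Ckm, Ampd3 over Ampd1 and Adssl1 over Ampd1, with the chemotherapy, tumor and healthy groups from left to right, points numbered by library (squares MB, circles VM) and bars for group means with SD. None of the 12 differences passed after adjustment; the largest was 0.79, for Ampd3 over Ampd1 in the tumor group against the healthy group.

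Ampd1, the AMP deaminase of skeletal muscle, passed the test in no comparison. Its level was between 1024 and 1251 CPM in the chemotherapy group (median 1098), between 957 and 1291 CPM in the tumor group (median 1231) and between 931 and 1361 CPM in the healthy group (median 1142). Both tumor-bearing ranges lay inside the healthy range. The log2 differences were -0.023 ± 0.132 for the chemotherapy group against healthy (SE, adjusted p = 0.916) and 0.049 for the tumor group against healthy. Ampd1 correlated with the fast-fiber marker sum over the 16 samples (r = 0.792), and that sum averaged 160900 ± 11100 CPM in the chemotherapy group, 164900 ± 12840 CPM in the tumor group and 171000 ± 29310 CPM in the healthy group. The fast-fiber sum is led by Myh4, and Myh1, Myh2 and Atp2a1 were not analysed here.

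Ampd3, the AMP deaminase isoform of red blood cells, had its highest mean level in the tumor group, though no comparison passed after adjustment. The chemotherapy samples had a lowest level of 13.9 CPM, a median of 14.8 CPM and a highest of 30.8 CPM. Tumor libraries 6 to 10 had 35.5, 29.6, 37.6, 16.4 and 29.1 CPM, and healthy libraries 1 to 5 had 23.6, 16.2, 10.03, 14.05 and 18.7 CPM. Of the chemotherapy samples, 5 of 6 lay within the healthy range and library 15 lay above it. Of the tumor samples, 4 of 5 lay above every healthy sample and tumor library 9 lay among the healthy samples.

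Mean Ampd3 levels were 17.5 ± 6.63 CPM in the chemotherapy group, 29.6 ± 8.28 CPM in the tumor group and 16.5 ± 5.08 CPM in the healthy group (SD, n = 6, 5 and 5). The log2 fold change was 0.86 ± 0.257 in the tumor group against healthy (SE, adjusted p = 0.211) and -0.78 ± 0.246 in the chemotherapy group against the tumor group (SE, adjusted p = 0.778). These comparisons share the tumor samples. By p, Ampd3 ranked 164 and 56 among the 11856 genes. Against healthy, the chemotherapy group differed by 0.077 ± 0.252 (SE, adjusted p = 0.849). As a share of Ampd1 counts, Ampd3 counts lay between 1.24% and 2.88% in the chemotherapy group, between 1.34% and 3.72% in the tumor group and between 0.882% and 1.996% in the healthy group. That log2 ratio differed by 0.79 between the tumor and healthy groups (exact p = 0.0397, adjusted 0.171) and by -0.70 between the chemotherapy and tumor groups (exact p = 0.0498, adjusted 0.171).

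Slow-fiber markers were also highest on average in the tumor group, with a summed level of 8186 ± 1699 CPM in the chemotherapy group, 13100 ± 2989 CPM in the tumor group and 8659 ± 2810 CPM in the healthy group (SD, n = 6, 5 and 5). The sum lay between 6475 and 10860 CPM in the chemotherapy group, highest in library 15 as for Ampd3. It was 14470, 13480, 16070, 8118 and 13380 CPM in tumor libraries 6 to 10, lowest in library 9 as for Ampd3, and between 5668 and 12990 CPM in the healthy group. Of the 9 slow-fiber genes measured, among them Myh7, Atp2a2 and Myl3, 9 had positive fold changes in the tumor group against healthy (0 called, median 0.76 against 0.0097 over all genes), as had 51% of all genes. Against the tumor group, 9 were negative in the chemotherapy group (0 called, median -0.46 against 0.0040), as were 49.4% of all genes. In the chemotherapy group against healthy, 7 were positive and 2 negative (0 called, median 0.15 against -0.018 over all genes). At an unadjusted p below 0.05 there were 4 higher and 0 lower, against 18.9% and 17.5% of all genes. Myh7, which has the highest mean CPM of the list and so leads the sum, was among the negative genes (-0.38). Over the samples Ampd3 and the slow-fiber sum correlated with r = 0.835. Ampd3 and the red blood cell sum had r = -0.289, and that sum averaged 430 ± 282 CPM in the chemotherapy group, 405 ± 140 CPM in the tumor group and 863 ± 342 CPM in the healthy group. The part of fiber type in the Ampd3 values was not tested.

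Adssl1, the muscle adenylosuccinate synthetase, had a level between 906 and 1141 CPM in the chemotherapy group. Tumor libraries 6 to 10 had 871, 946, 1036, 997 and 1019 CPM, and healthy libraries 1 to 5 had 1145, 1084, 1624, 996 and 1157 CPM. All 6 chemotherapy and all 5 tumor samples lay below the healthy median of 1145 CPM, but healthy library 4 lay inside both ranges and library 3 lay far above the rest. The log2 difference from healthy was -0.24 ± 0.132 in the chemotherapy group (SE, adjusted p = 0.191) and -0.30 ± 0.139 in the tumor group (SE, adjusted p = 0.268). Between the chemotherapy and tumor groups it was 0.061 (adjusted p = 0.918).

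**Figure D4:**
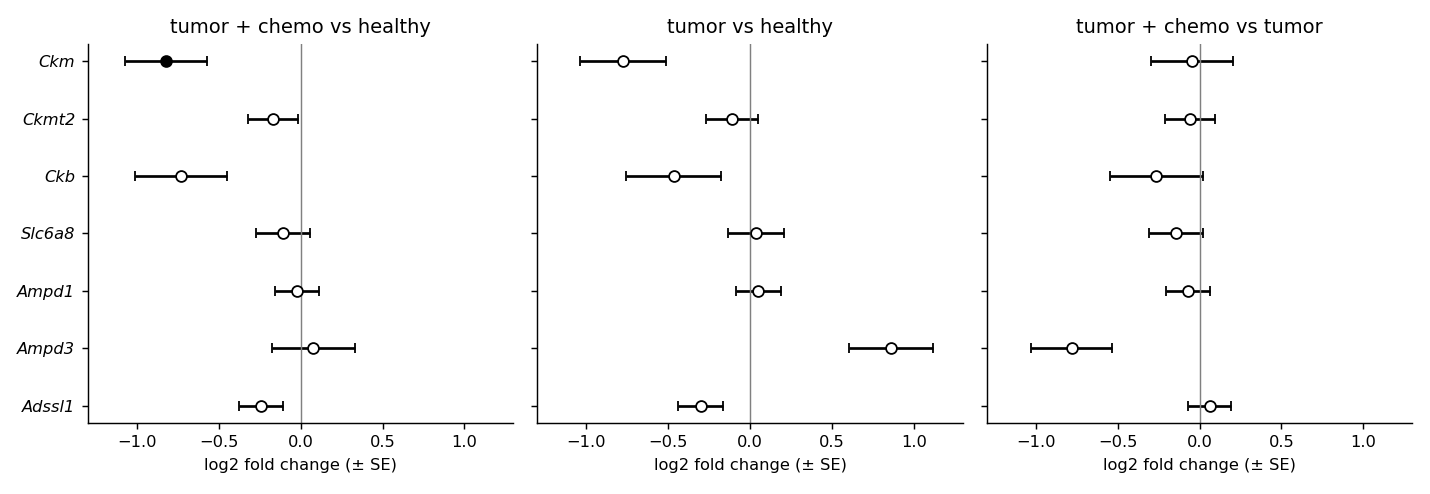
Log2 fold change of each member with its SE, for the chemotherapy group against healthy, the tumor group against healthy and the chemotherapy group against the tumor group; filled points are called. The single filled point is Ckm in the chemotherapy group against healthy, at -0.82.

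Over the 7 members the median log2 fold change was -0.17 in the chemotherapy group against healthy, against -0.018 over all genes. It was -0.11 in the tumor group against healthy, where all genes had 0.0097, and -0.072 in the chemotherapy group against the tumor group, where all genes had 0.0040. Groups overlapped for 7 of 7 members in each comparison. Groups that did not overlap were found for 4% of all genes in the chemotherapy group against healthy, for 0.995% in the tumor group against healthy and for 0.481% in the chemotherapy group against the tumor group.

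The genes whose log2 level followed each member most closely over the 16 samples, which share depth, preparation and group, differed between members. Ckm went with Myoz1, a Z-disc protein (r = 0.989), Acta1 (0.989) and Aldoa, a glycolytic aldolase (0.983). Ckb went with Col6a1, a collagen VI chain (0.949), Adamts2, a procollagen protease (0.946), and Reck, a membrane-anchored protease inhibitor (0.941).

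Ckmt2 went with Acadvl, which oxidises very long chain fatty acids (r = 0.919), Mdh1, the cytosolic malate dehydrogenase (0.887), and Serhl2 (0.834). Slc6a8 went with Sp2 (0.858), Slco3a1 (0.794) and Spen (0.768). Without the 2 samples farthest from the median, r for Spen was 0.566. Ampd1 went with Rgs6 (0.825), Art3 (0.765) and Fkbp5, a glucocorticoid-responsive gene (0.753). Ampd3 went with AABR07007032.1 (0.896), Kcnn3, a calcium-activated potassium channel (0.894), and Myh6, a myosin heavy chain of heart (0.846). Adssl1 went with Tmem38a, a channel of the sarcoplasmic reticulum (0.87), Nr2c2ap (0.846) and Cxcl14 (0.815), the last with r = 0.448 without the 2 farthest samples.

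The surrounding pathway was read from 5 lists of 59 genes, of which 48 were tested. Relative to healthy, 6 rose, 1 fell and 41 were not called in the chemotherapy group, where 7.3% of all genes were called higher and 6.41% lower. Over both directions 14.6% of the 48 were called, against 13.7% of all genes. The median log2 fold change of the 48 was 0.034. In the tumor group against healthy 0 of 48 were called by edgeR. Of the 48, 4 were higher and 4 lower at an unadjusted p below 0.05, against 8.88% and 9.12% of all genes. Against the tumor group, 0 were called in the chemotherapy group. There 1 was higher and 1 lower at that unadjusted p, against 1.97% and 3.81% of all genes. All 7 calls were lost with the suffix as a term, among VM libraries and without healthy libraries 1, 3 and 4, where 0 of all genes were called. The same held on leaving out healthy library 1, 3 or 4 alone, or chemotherapy library 13, 14 or 15 alone.

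Of the other adenylate kinases 1 of 3 tested rose: Ak3, the GTP-dependent form of the mitochondrial matrix. It averaged 58.1 ± 3.72 CPM in the chemotherapy group and 42.3 ± 5.06 CPM in the healthy group (SD, n = 6 and 5), with no overlap, and a log2 fold change of 0.46 ± 0.112 (SE, adjusted p = 0.0279). The tumor group averaged 51.6 ± 3.04 CPM, which was 0.29 above healthy on the log2 scale (adjusted p = 0.247).

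In the purine nucleotide cycle and adenine nucleotide turnover list 2 of 22 rose and 1 fell in the chemotherapy group against healthy. Ampd2, the AMP deaminase of non-muscle tissues, fell to 7.44 ± 1.48 CPM in the chemotherapy group, against 12.3 ± 3.12 CPM in the healthy group, a log2 fold change of -0.74 ± 0.201 (SE, adjusted p = 0.0312). Thus the 3 AMP deaminase genes had log2 fold changes of -0.023 (Ampd1), -0.74 (Ampd2) and 0.077 (Ampd3) in that comparison. Hprt1, which salvages hypoxanthine to IMP, rose by 0.69 (adjusted p = 0.0341), at 14.8 ± 2.46 CPM in the chemotherapy group and 9.21 ± 2.84 CPM in the healthy group. Nudt2, which hydrolyses diadenosine tetraphosphate, rose by 0.59 (adjusted p = 0.0337), with no overlap between the chemotherapy group (24.4 ± 2.27 CPM) and the healthy group (16.2 ± 3.58 CPM).

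At the mitochondrion 2 of 9 exchange genes rose in the chemotherapy group. Slc25a4, the muscle form of the ADP/ATP carrier, averaged 4122 ± 476 CPM in the chemotherapy group and 2851 ± 507 CPM in the healthy group, a log2 fold change of 0.53 ± 0.168 (SE, adjusted p = 0.0443). Vdac3, an outer membrane channel, averaged 608 ± 111 CPM in the chemotherapy group and 337 ± 147 CPM in the healthy group, a log2 fold change of 0.85 ± 0.254 (SE, adjusted p = 0.0379). Among 11 AMPK subunits and upstream kinases 1 rose: Prkab2, a regulatory beta subunit, at 258 ± 36.8 CPM in the chemotherapy group and 140.5 ± 68.0 CPM in the healthy group (0.88 ± 0.258, SE, adjusted p = 0.0366). Of 3 tested genes of creatine supply and other creatine kinases 0 were called.

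The smallest p in the other comparisons belonged to genes that were not called. For the tumor group against healthy they were Hprt1 (log2 0.70), Stradb, a pseudokinase partner of LKB1 (-0.47), and Ak3 (0.29). For the chemotherapy group against the tumor group they were Nudt2 (0.38), Ampd2 (-0.45) and Slc25a4 (0.32).

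**Figure D5:**
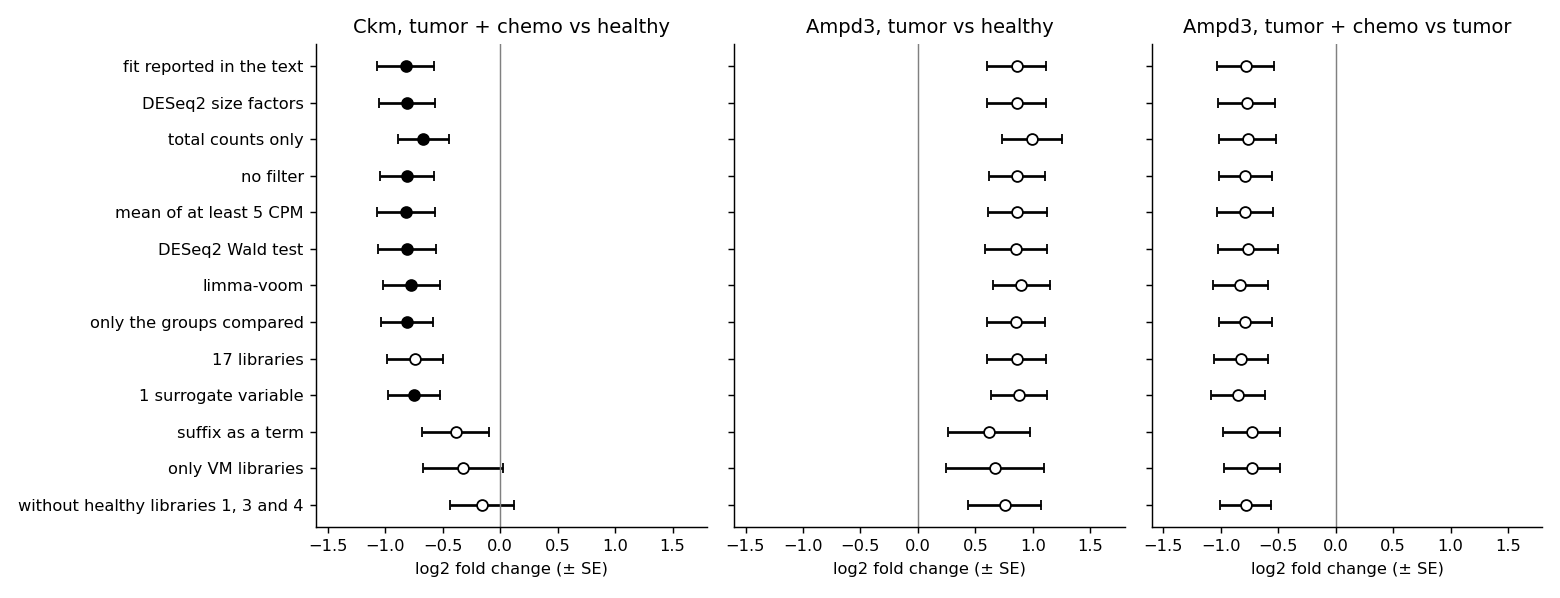
Log2 fold change with its SE under the processing alternatives named at the left, for Ckm in the chemotherapy group against healthy, Ampd3 in the tumor group against healthy and Ampd3 in the chemotherapy group against the tumor group; filled points are called. Ckm spans -0.82 to -0.16, Ampd3 in the tumor group against healthy spans 0.62 to 0.99, and Ampd3 in the chemotherapy group against the tumor group spans -0.85 to -0.73.

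Other marker lists gave the cellular setting of the chemotherapy against healthy comparison. Called lower were 4 of 7 fibroblast genes, 5 of 8 smooth muscle and pericyte genes, 1 of 7 endothelial genes, 1 of 9 fast-fiber genes and 1 of 4 atrophy ligases, where 6.41% of all genes were called lower. Called higher was 1 endothelial gene, where 7.3% of all genes were, and none of the slow-fiber, macrophage, nerve and Schwann cell, red blood cell or adipocyte genes was called. All these calls were lost with the suffix as a term, among VM libraries and without healthy libraries 1, 3 and 4, where 0 of all genes were called, and edgeR called 0 genes of any list in the other comparisons. The fibroblast genes with the highest mean CPM were Col1a1, at 2790 ± 2763 CPM in the chemotherapy group and 5751 ± 4021 CPM in the healthy group (not called), Col3a1, which fell by 1.31 on the log2 scale (adjusted p = 0.0262), and Dcn, which was not called.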

How the data were processed

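Reads per gene were deposited by the authors as 1 table of raw counts for 17 libraries, with no normalisation. Per the labels' protocols, a stranded library kit with ribosomal RNA depletion was used. Tools named in the submitters' processing notes are TopHat2 2.0.10, Bowtie2, Trim Galore 0.4.1, CASAVA 1.9 and FastQC 0.11.4. Neither a genome build nor a counting program is given in the sources used here. Of 32883 entries, 388 had no gene name and were left out (at most 0.373% of a library's counts). Among counts of 1 to 10, between 45.9% and 59.5% per sample were even. Shares well above 50% can arise where both mates of a read pair are counted; whether they were is not given, and a count may then stand for less than a fragment.

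The chi-square per degree of freedom between libraries 11 and 12 was 2.03, against 5.16 for the closest other pair of a group; these libraries were summed, leaving 16 samples. Counts were tested in R 4.3.3 with edgeR 4.0.16 (TMM, filterByExpr minimum count 10, robust quasi-likelihood, a mean per group, 13 residual degrees of freedom), with Benjamini-Hochberg adjustment over 11856 genes. Dividing the absolute log2 fold change by the root of F gave its SE. The code was tested on simulated data. Correlations used log2 CPM with a prior count of 2. Ratios of counts within a library were compared by two-sided exact permutation tests; the smallest p is 0.00794 for 5 against 5 and 0.00216 for 6 against 5. Motifs were searched in RefSeq GRCr8 sequences.

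All members are named. Of the pathway lists, every called gene and the 3 with the smallest p per comparison are named; of all genes, the 3 with the highest r to each member; of marker lists, up to 3 with the highest mean CPM. The members and lists were chosen with earlier results of these data known. Alternatives were DESeq2 1.42.0 size factors and Wald test, total counts, other filters, no 20 most abundant genes, limma-voom (limma 3.58.1), only the groups compared, 17 libraries, the suffix as a term or VM libraries only, 1 surrogate variable (sva 3.50.0), no healthy libraries 1, 3 and 4, and leaving out each sample. Chosen after seeing the data was limma-voom with the number in the alignment name as a block (duplicateCorrelation).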

Additional observations from a re-analysis of the deposited data

Results flagged for a closer look

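In 33 checks for a sample far from the others of its group, 4 values met Dixon's criterion, and chance gives about 1 in 20 such values. Ckb stood at 38.4 CPM in chemotherapy library 11, the deepest library and the only MB library of its group, where the next highest sample had 21.2 CPM. Ampd3 stood at 30.8 CPM in chemotherapy library 15, where the next highest had 16.9 CPM, and the log2 ratio of Ampd3 to Ampd1 stood at -5.12 in the same library, where the next was -6.05. Adssl1 stood at 1624 CPM in healthy library 3, where the next highest had 1157 CPM.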

How the results depend on the processing

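Over the alternatives Ampd3 kept its sign and was never called: in the tumor group against healthy it was 0.62 to 0.99 (0.71 to 1.01 with 1 sample left out), and in the chemotherapy group against the tumor group -0.85 to -0.73 (-0.99 to -0.69). Members called in the chemotherapy group against healthy (1) were 0 without the 20 most abundant genes, since Ckm is among these, and 0 with 17 libraries (Ckm adjusted p = 0.0522), the suffix as a term, VM libraries only or no healthy libraries 1, 3 and 4. Leaving out 1 sample gave 0 to 2 members there, 0 to 1 in the tumor group against healthy, where Ckm was called without healthy library 2 (-0.92, adjusted p = 0.0488), and 0 in the chemotherapy group against the tumor group.

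All genes called in the chemotherapy group against healthy (1625: 865 higher, 760 lower) were 884 with no filter, 2577 by DESeq2, 2444 by limma-voom, 0 with the suffix as a term, 0 in VM libraries, 0 without healthy libraries 1, 3 and 4, and 0 to 3799 with 1 sample left out. Scaling by total counts gave 1669 higher and 348 lower, with the median of all genes at 0.12 (0.13 in the tumor group against healthy). In the tumor group against healthy DESeq2 called 40, the surrogate variable 1, and leaving out samples 0 to 504. In the chemotherapy group against the tumor group DESeq2 called 9, and leaving out samples 0 to 3.

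Some differences changed sign, and the cause was not tested. All but that of Ckb were small in the fit over all samples. For the chemotherapy group against healthy, Slc6a8 was 0.033 (total counts) and 0.044 (suffix); Ampd1 0.13 (total counts), 0.052 (suffix), 0.25 (VM) and 0.012 (without healthy 1, 3 and 4); Ampd3 -0.11, -0.056 and -0.029 under the last 3 of these. For the tumor group against healthy, Ckmt2 was 0.013 (total counts). Ckb, at -0.47 in the fit over all samples, was 0.31, 0.18 and 0.15 in that comparison (suffix, VM, without healthy 1, 3 and 4). For the chemotherapy group against the tumor group, Ckm was 0.033 (17 libraries) and 0.0089 (surrogate variable). With 1 sample left out the ranges were Ampd1 -0.094 to 0.042 and Ampd3 -0.14 to 0.23 (chemotherapy against healthy), Ampd1 -0.020 to 0.12 and Slc6a8 -0.061 to 0.12 (tumor against healthy), and Ckm -0.18 to 0.10 and Ckmt2 -0.14 to 0.023 (chemotherapy against tumor).

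Among the ratios, VM libraries gave Ckmt2 over Ckm of -0.094 (chemotherapy against healthy), -0.16 (tumor against healthy) and 0.063 (chemotherapy against tumor), Ckb over Ckm of -0.032 and Ampd3 over Ampd1 of -0.35 (both chemotherapy against healthy). Without healthy 1, 3 and 4 the last 2 were -0.022 and -0.080. With 1 sample left out they spanned -0.073 to 0.10 and -0.094 to 0.21, and Ckmt2 over Ckm spanned -0.18 to 0.18 (chemotherapy against tumor). No paired comparison was made, because the labels do not say which samples, if any, share an animal. The numbers in the alignment names recur on 8 samples; limma-voom with them as a block, chosen after seeing the data, estimated a correlation of -0.049, called 2599 genes and 1 member (Ckm, adjusted p = 0.0345) in the chemotherapy group against healthy, and gave Ckm 0.00052 in the chemotherapy group against the tumor group.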

Other observations

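Ckmt1, the mitochondrial creatine kinase of non-muscle tissues, was looked at after its values were seen. It had 39 counts in all, spread over 4 of the 17 libraries, and 13 libraries were listed at 0. Of these counts 33 lay in tumor library 8. The gene did not pass the filter on low counts, so no comparison was made.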
